A study of Mus musculus with 14 samples.

Results

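The P2X and P2Y receptors for extracellular nucleotides were followed in 14 RNA-seq libraries of mouse cochlear supporting cells (SCs), and 10 receptor genes were taken by name from the count tables of 35976 genes. Of these, 4 encode P2X receptors (P2rx2, P2rx3, P2rx4 and P2rx7) and 6 encode P2Y receptors (P2ry1, P2ry2, P2ry4, P2ry6, P2ry12 and P2ry14). Cochleae came from Lfng-EGFP mice, a bacterial artificial chromosome transgenic line on a C57BL/6 background in which the Lfng gene's regulatory DNA drives EGFP, so the sorted cells were those in which that transgene was active. Explants were cultured for 24 h with 2 µM compound E (CompE), a γ-secretase inhibitor that blocks Notch receptor cleavage, or with its vehicle DMSO, and EGFP+ cells were sorted from several organs pooled in a tube. Each treatment had 4 libraries at postnatal day 0 (P0) and 3 libraries at P6. All groups carried the transgene and all had spent the same time in culture, and no uncultured cells are compared here. The growth protocol in the labels gives the younger age as P0 to P1.

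ATP released by inner supporting cells of the developing cochlea is known to act on some receptors of this family. It starts the spontaneous activity that precedes hearing. P2X receptors are ATP-gated trimeric cation channels, and P2Y receptors couple to G proteins. P2Y1, P2Y2, P2Y4 and P2Y6 act mainly through phospholipase C and calcium release from internal stores. The usual agonists are ADP for P2Y1, ATP or UTP for P2Y2 and UDP for P2Y6. P2Y12 (ADP) and P2Y14 (UDP-glucose) act mainly through inhibitory G proteins. Other cell types in the cochlea carry them too: P2X2 and P2X3 are known from hair cells and spiral ganglion neurons, and P2Y12 and P2X7 from microglia and macrophages.

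Library totals ran from 19415066 to 44430063 counts. The 8 SC markers examined were Sox2, Prox1, Fgfr3, Lfng, Jag1, Matn4, Fabp7 and Rorb. All had more than 3 counts in every library, the level treated as the floor. Markers of the labelled cell type were thus present, though this floor does not measure purity. Their summed levels were 1642 to 9786 RPM, the count divided by the library total and scaled to 1000000 counts. The 8 hair cell (HC) markers were above the floor in every library too, with summed levels of 377 to 2168 RPM. Both P6 replicate 3 libraries stood apart: all 10 macrophage markers were above the floor, with summed levels of 47.1 RPM (DMSO) and 118 RPM (CompE) against 1.00 to 20.2 RPM in the other 12 libraries. Their summed levels of 6 endothelial markers (42.2 RPM with DMSO and 46.2 RPM with CompE, at most 13.2 RPM elsewhere) and of 6 mesenchyme markers (3947 and 3307 RPM, at most 2448 RPM elsewhere) were the highest too. The P2ry6 response to CompE at P6, and its difference from the response at P0, are therefore also given without both libraries. So are some P6 over P0 values with CompE at the end. Other P6 results include both libraries unless stated. Same-numbered CompE and DMSO libraries were processed in the same batch, and no batch held both ages, so age and batch cannot be told apart.

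The genes lie on chromosomes 2 (P2rx3), 3 (P2ry1, P2ry12 and P2ry14), 5 (P2rx2, P2rx4 and P2rx7), 7 (P2ry2 and P2ry6) and X (P2ry4) of GRCm38. P2ry6 (chr7:100937630-100974649, minus strand) ends 21918 bases from P2ry2 (chr7:100996568-101012866, minus strand), and P2rx7 lies 16111 bases from P2rx4. P2ry12 and P2ry14 lie within Med12l, which is transcribed from the other strand, and the library kit does not mark strand, so reads of unspliced Med12l cannot be told apart from theirs. P2ry1 shares 992 exon bases with Gm37035 and P2rx3 shares 51 with Ssrp1, both on the other strand, with the same limit.

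Promoter windows of 300 bases (250 before and 50 after the start) were found in the RefSeq table of GRCm38.p6 for 7 of the 10 genes and not for P2rx2, P2rx3 or P2ry6. Shown are the windows of P2ry1 and P2ry2, the P2Y receptors with the highest levels here, and of P2ry12, a receptor near the floor, with every CG dinucleotide (the letters CG, which read the same on both strands) in capitals.
P2ry1 (chr3:61002535-61002834, plus strand): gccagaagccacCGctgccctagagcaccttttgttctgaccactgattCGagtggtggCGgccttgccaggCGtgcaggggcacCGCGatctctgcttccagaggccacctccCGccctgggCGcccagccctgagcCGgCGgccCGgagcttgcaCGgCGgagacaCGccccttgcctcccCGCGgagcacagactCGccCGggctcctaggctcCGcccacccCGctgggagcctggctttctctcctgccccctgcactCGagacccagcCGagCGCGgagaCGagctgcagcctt
P2ry2 (chr7:101012004-101012303, minus strand): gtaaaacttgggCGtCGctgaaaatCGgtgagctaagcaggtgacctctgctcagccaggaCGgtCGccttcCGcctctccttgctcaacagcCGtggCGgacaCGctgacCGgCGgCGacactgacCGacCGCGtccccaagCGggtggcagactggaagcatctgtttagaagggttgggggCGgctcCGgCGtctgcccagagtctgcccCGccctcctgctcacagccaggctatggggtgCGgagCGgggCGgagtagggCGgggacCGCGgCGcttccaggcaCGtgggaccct
P2ry12 (chr3:59262936-59263235, minus strand): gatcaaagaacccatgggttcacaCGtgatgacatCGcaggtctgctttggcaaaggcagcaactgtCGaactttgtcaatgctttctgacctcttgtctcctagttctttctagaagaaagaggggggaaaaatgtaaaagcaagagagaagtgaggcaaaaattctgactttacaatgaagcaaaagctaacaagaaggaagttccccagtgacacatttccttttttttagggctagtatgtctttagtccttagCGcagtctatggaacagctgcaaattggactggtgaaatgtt
The P2ry1 window held 25 CGs and the P2ry2 window 28, more than 81.6% and 86.0% of the 27025 genes in the table, and the P2ry12 window held 4, more than 31.9%. The median gene had 7, and 94.2% of windows held at least 1. The windows of P2rx4 (18) and of P2ry4 and P2ry14 (4 each, first listed start) split in the same way between receptors with clear levels and receptors near the floor. P2rx7 had 8 at its first listed start, between them, and 4 at its second. P2rx2, P2rx3 and P2ry6, which had clear levels, had no window to compare. These counts describe the sequence and say nothing of methylation, which was not measured.

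To compare levels between genes, RPM were divided by exon length in kilobases (RPKM). P2rx2 had the highest level per length in every group, with a mean of 66.3 ± 11.9 RPKM (SD, n = 4) with DMSO at P0 and 183 ± 44.7 RPKM (SD, n = 3) with DMSO at P6. It made up 61.3% ± 2.80 (SD, n = 4) of the summed RPKM of the 10 receptors with DMSO at P0, 52.3% ± 3.86 (SD, n = 4) with CompE at P0, 70.4% ± 6.78 (SD, n = 3) with DMSO at P6 and 80.3% ± 3.30 (SD, n = 3) with CompE at P6. P2ry2 came next in all 4 groups, at means of 18.3 to 33.9 RPKM. In P0 DMSO libraries the order then ran P2ry1 (9.23 RPKM), P2ry6 (6.19 RPKM), P2rx3 (4.52 RPKM) and P2rx4 (3.12 RPKM), and the ranges of each of these neighbours overlapped. In P0 CompE libraries P2rx3 (13.8 RPKM) followed P2ry2, its range overlapping that of P2ry1 (10.4 RPKM), and P2ry6 (0.446 RPKM) came after P2rx4. At P6 the ranges of P2ry2 and P2ry1 overlapped with either treatment. P2rx7, P2ry12, P2ry4 and P2ry14 had mean levels per length of at most 0.183 RPKM in all groups.

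**Figure D1:**
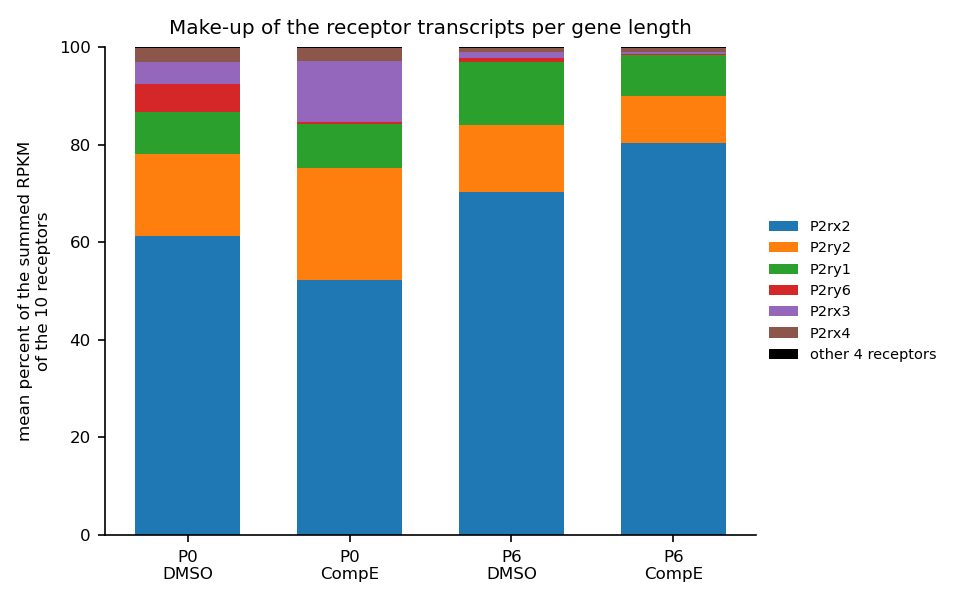
Each bar gives the make-up of the receptor transcripts in a group, as the mean percent over its libraries of the summed RPKM of the 10 receptors (vertical axis). P2rx2 (blue) takes 52.3% to 80.3% of each bar, P2rx3 (purple) is widest with CompE at P0 at 12.4%, and the black part for P2rx7, P2ry4, P2ry12 and P2ry14 together is too thin to see.

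The comparison of CompE with DMSO at P0 asks which receptor transcripts change in SCs when Notch signalling is blocked for a day. P2ry6, the UDP receptor, fell in every pair, while P2rx2, P2rx4 and P2ry1 held levels whose treatment groups overlapped. P2rx3 was higher with CompE in all 4 pairs, and its call depended on the test. Of the 10 receptors, 7 had enough counts to be tested at P0 and 1 was called (edgeR, adjusted p no higher than 0.01 with a change of 2-fold or more), beside 1.22% of all 15937 genes tested. With the replicate number as a block, 2 of the 7 were called, beside 2.2% of all genes, and DESeq2 called the same 2 genes, P2ry6 and P2rx3, beside 2.67% of all genes. The median log2 fold change of the 7 receptors was 0.12, and that of all genes tested was 0.01.

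P2ry6 stood at 12.9, 18.2, 20.6 and 19.7 RPM in P0 DMSO replicates 1 to 4 (342, 726, 650 and 599 counts) and at 0.855, 1.60, 1.40 and 1.29 RPM in the P0 CompE replicates (38, 31, 48 and 41 counts). Every CompE library was below every DMSO library, and the lowest DMSO library was replicate 1. The mean went from 17.9 ± 3.43 RPM (SD, n = 4) to 1.29 ± 0.314 RPM (SD, n = 4), a log2 fold change of -3.85 ± 0.283 (SE) with an adjusted p of 0.000245 by edgeR. Within pairs the log2 ratio was between -3.93 and -3.51, so the pairs gave nearly the same ratio. With the replicate block the change was -3.85 ± 0.171 (SE), with an adjusted p of 5.34e-05 by edgeR. The call held when each of the 8 libraries was left out in turn, with log2 fold changes of -4.01 to -3.67. SC markers also moved with treatment at P0: 6 of 8 had lower fitted levels with CompE. The summed level of the 8 was 4455 to 5023 RPM with CompE and 4897 to 9786 RPM with DMSO. Most of the difference lay in Lfng, which the paper names as a Notch target, and Jag1. Lfng had means of 2791 RPM with DMSO and 912 RPM with CompE, and Jag1 of 2197 and 879 RPM. By fold change Fabp7 fell most, from a mean of 194 RPM with DMSO to 19.3 RPM with CompE. Its log2 fold change was -3.38 ± 0.392 (SE; adjusted p of 0.00138 by edgeR), which was called. Fgfr3 (1571 and 1771 RPM) and Rorb (228 and 303 RPM) were higher with CompE. The part of SC markers in the P2ry6 result was not tested. In libraries of sorted cells, fewer cells of a type and less RNA per cell cannot be told apart.

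P2rx3, whose product joins P2X2 in heteromeric channels, stood at 20.6, 4.68, 5.49 and 19.7 RPM in P0 DMSO replicates 1 to 4 and at 55.0, 27.8, 30.5 and 40.2 RPM in the CompE replicates. DMSO replicates 1 and 4 were higher than replicates 2 and 3, yet every CompE library was above every DMSO library. Its log2 fold change was 1.59 ± 0.454 (SE) with an adjusted p of 0.105 by edgeR, which was not called. With the replicate block it was 1.81 ± 0.262 (SE) with an adjusted p of 0.00502 by edgeR, and with DESeq2 1.58 with an adjusted p of 0.00629, both called. Within pairs the log2 ratio was 1.41, 2.57, 2.47 and 1.03. HC markers moved in the same direction at P0. Their summed level was 924, 603, 802 and 1352 RPM in DMSO replicates 1 to 4 and 2168, 1168, 1496 and 1663 RPM in CompE replicates 1 to 4, with 7 of 8 markers higher in the fit and 2 of 8 (Pou4f3 and Atoh1) called with the block. Of 6 neuron markers, Isl1, which HCs also express, and Tubb3 were higher with CompE in all 4 pairs, and Nefl, Nefm, Nefh and Prph in 2 of 4 each. The part of either cell type in the P2rx3 result was not tested.

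P2ry2, the ATP and UTP receptor, stood at 60.5, 64.8, 98.9 and 63.4 RPM in P0 DMSO replicates 1 to 4 and at 84.1, 119, 124 and 88.1 RPM with CompE. DMSO replicate 3 was apart from the other DMSO libraries and lay above CompE replicates 1 and 4, so the groups overlapped, although each CompE library was above its own DMSO partner. This gave a log2 fold change of 0.49 ± 0.213 (SE) with an adjusted p of 0.352 by edgeR, and with the replicate block 0.50 ± 0.109 (SE) with an adjusted p of 0.0310, below the 2-fold threshold. The neighbouring genes P2ry2 and P2ry6 thus differed in direction at P0 in all 4 pairs.

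P2rx2, a subunit of the main ATP-gated channel of cochlear epithelia, stood at 154, 141, 210 and 178 RPM in P0 DMSO replicates and at 138, 172, 194 and 119 RPM with CompE. The groups overlapped, with 3 of 4 pairs lower with CompE, and the log2 fold change was -0.17 ± 0.191 (SE), with an adjusted p of 0.818 by edgeR. P2rx4, a widely expressed channel found on lysosomal and surface membranes, ran from 18.2 to 24.9 RPM with DMSO and from 19.9 to 25.3 RPM with CompE, for a log2 fold change of -0.04 ± 0.123 (SE). P2ry1, the ADP receptor through which cochlear SCs are known to answer released ATP, ran from 23.3 to 57.0 RPM with DMSO and from 29.4 to 53.3 RPM with CompE. Its groups overlapped and its log2 fold change was 0.12 ± 0.298 (SE), with an adjusted p of 0.934 by edgeR. P2rx7, a channel opened by high ATP, had 2 to 28 counts in each P0 library and overlapping groups.

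**Figure D2:**
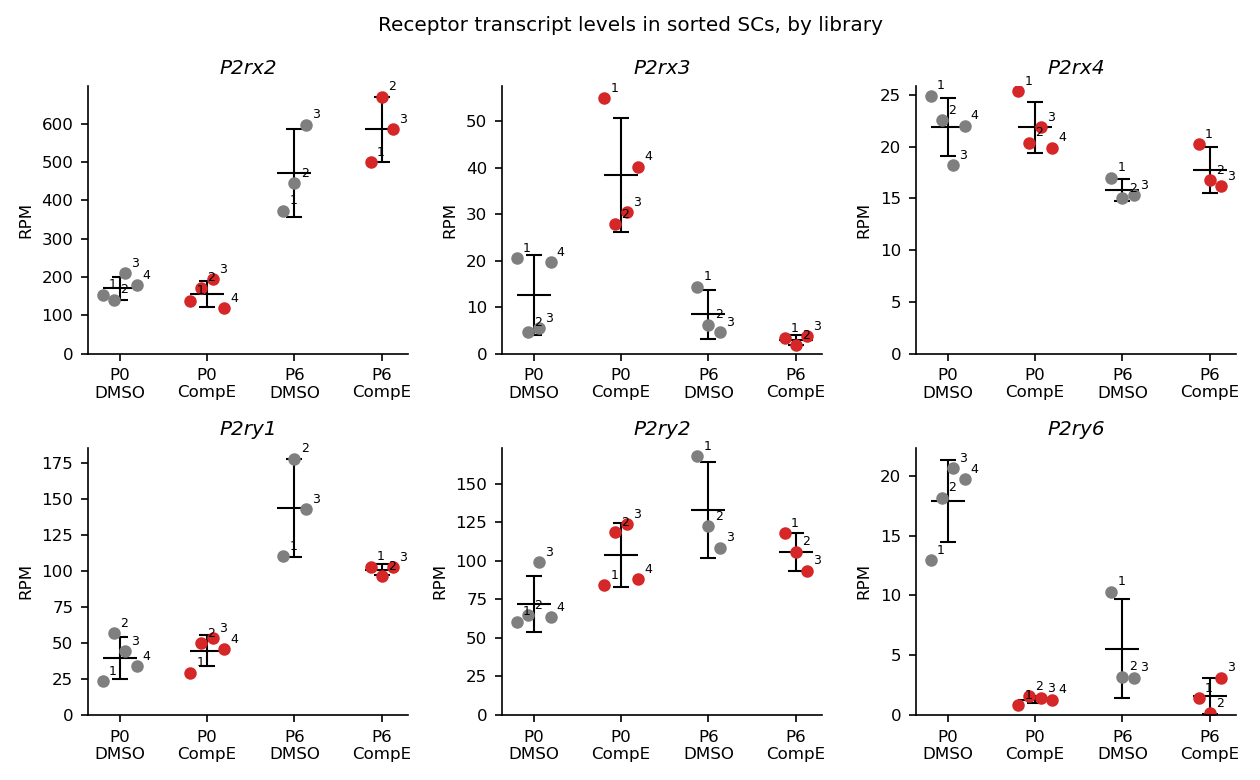
RPM (vertical axis, from 0) of the 6 receptors with clear levels, 1 point per library with its replicate number, grey for DMSO and red for CompE, with the mean as a horizontal line and the SD as bars. P2ry6 drops from 12.9 to 20.6 RPM with DMSO to 0.855 to 1.60 RPM with CompE at P0, and P2rx2 and P2ry1 lie higher at P6 than at P0 with either treatment.

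At P6 the same question was put to older SCs. None of the 7 receptors tested was called by edgeR without or with the replicate block or by DESeq2. Over all 15322 genes the called share was 0.0% by edgeR without the block, 0.0% with it and 0.0718% by DESeq2. At an unadjusted p under 0.05, edgeR counted 2 receptors without the block and 4 with it, and DESeq2 counted 2, beside 1.89%, 7.23% and 2.68% of all genes. The common biological coefficient of variation between replicates was 46.7% at P6 and 27.2% at P0.

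P2ry6 stood at 10.3, 3.21 and 3.13 RPM in P6 DMSO replicates 1 to 3 and at 1.39, 0.139 and 3.13 RPM in the CompE replicates. Pairs 1 and 2 were lower with CompE, at log2 ratios of -2.89 and -4.52, and the replicate 3 libraries had the same level, so the groups overlapped. The log2 fold change was -1.85 ± 1.00 (SE), with an unadjusted p of 0.106 and an adjusted p of 1.00 by edgeR. Without both replicate 3 libraries it was -3.14 (adjusted p of 1.00 by edgeR), and with the replicate block as well -3.56 (unadjusted p of 0.00290, adjusted p of 0.377 by edgeR). Macrophage, endothelial and mesenchyme markers were highest in those replicate 3 libraries. Summed SC markers were the lowest of each P6 group there, at 2596 RPM with DMSO and 1642 RPM with CompE. Replicates 1 and 2 had 5864 and 4688 RPM with DMSO and 3283 and 2795 RPM with CompE. Summed HC markers were the highest of each P6 group in replicate 3, at 971 and 1101 RPM. The part of any of these cell types in the P2ry6 level there was not tested.

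P2rx3 stood at 14.4, 6.23 and 4.64 RPM in P6 DMSO replicates and at 3.26, 1.74 and 3.75 RPM with CompE. Every CompE library was below every DMSO library, opposite to P0, with replicate 3 the closest pair at a log2 ratio of -0.31. The fitted log2 fold change was -1.53 ± 0.541 (SE), with an unadjusted p of 0.0243 and an adjusted p of 1.00 by edgeR. The summed level of HC markers was 377 to 971 RPM with DMSO and 501 to 1101 RPM with CompE, and most of that sum was Myo6. Of the 8 HC markers, 5 had higher and 3 lower fitted levels with CompE, none was called, and their part in the P2rx3 level was not tested.

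P2ry1 stood at 110, 178 and 143 RPM in P6 DMSO replicates and at 103, 96.2 and 103 RPM with CompE. The CompE libraries were all below the DMSO libraries and lay close together, with an SD of 3.87 RPM against 33.8 RPM with DMSO. Its log2 fold change was -0.51 ± 0.199 (SE), with an unadjusted p of 0.0371 and an adjusted p of 1.00 by edgeR. P2ry2 stood at 168, 123 and 109 RPM with DMSO and at 118, 106 and 93.6 RPM with CompE, lower in all 3 pairs but with overlapping groups. P2rx2 stood at 373, 445 and 598 RPM with DMSO and at 499, 672 and 586 RPM with CompE, and its groups overlapped. P2rx4 ran from 15.1 to 17.0 RPM with DMSO and from 16.2 to 20.3 RPM with CompE.

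**Figure D3:**
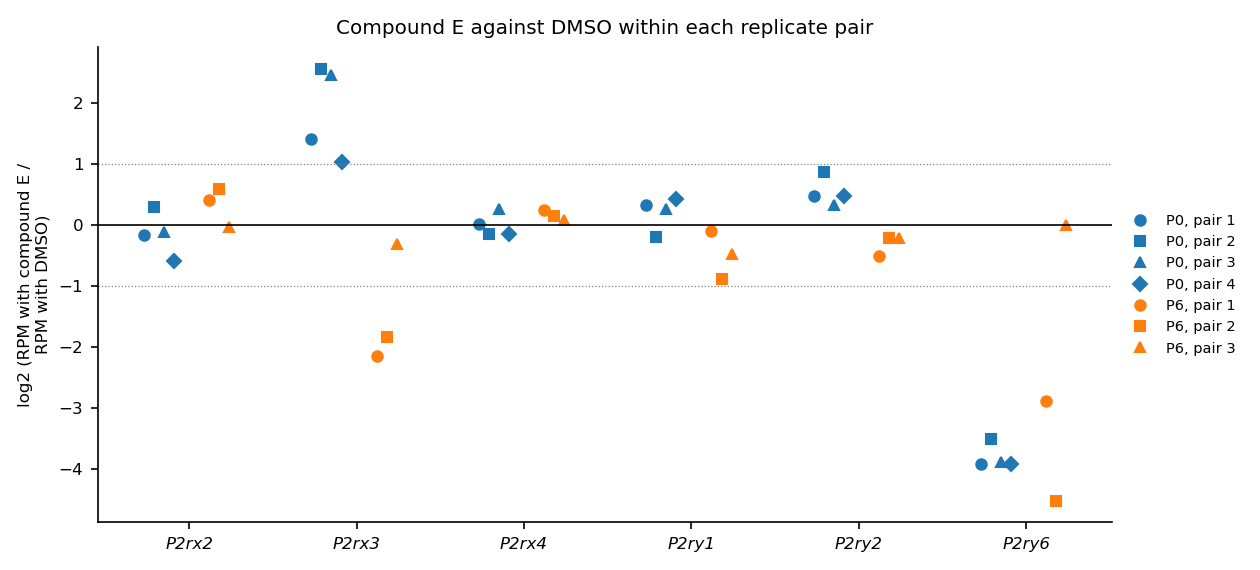
Log2 ratio of RPM with CompE over RPM with DMSO (vertical axis) within each replicate pair for 6 receptors, blue for P0 and orange for P6, with a symbol for each pair number and dotted lines at a 2-fold difference. P2rx3 lies between 1.03 and 2.57 at P0 and between -2.15 and -0.31 at P6, and P2ry6 lies between -4.52 and -2.89 in all pairs but P6 pair 3, at 0.00.

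Whether the answer to CompE differed between the ages was tested as an interaction over all 14 libraries, in which 9 of the 10 receptors could be tested. For P2rx3 the P6 response minus the P0 response was -3.10 ± 0.744 (SE) on the log2 scale, with an adjusted p of 0.383 by edgeR. It was -3.22 with an adjusted p of 0.0364 with the replicate block and -3.11 with an adjusted p of 0.00884 by DESeq2, which called it. For P2ry2 the difference was -0.79 ± 0.322 (SE), with an adjusted p of 0.926 by edgeR and of 0.0875 with the block. For P2ry6 it was 2.01 ± 0.915 (SE), with an adjusted p of 1.00 by edgeR, and 0.71 without both P6 replicate 3 libraries. None of the 9 receptors was called by edgeR and 1 by DESeq2, beside 0.0% of all 17090 genes by edgeR, 0.0936% with the block and 0.199% by DESeq2, and 3 of the 9 had an unadjusted p under 0.05 by edgeR, beside 4.75% of all genes.

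Between P0 and P6 the ionotropic P2rx2 and the metabotropic P2ry1 both rose, with DMSO and with CompE, while P2rx3 fell with CompE. With DMSO, 2 of 9 receptors tested were called, beside 7.12% of all 17090 genes, and with CompE 3 of 9, beside 6.43%. The median log2 fold change of the 9 receptors was 0.92 with DMSO, where the median gene was P2ry14 near the floor, and 0.37 with CompE. Over the 6 receptors with a mean of at least 1 RPM it was 0.28 and 0.27, and over all genes -0.05 and -0.03. Cell type markers moved with age as well: 4 of 8 SC markers were called with DMSO and 6 of 8 with CompE, and 2 of 8 HC markers, Atoh1 and Ccer2, fell with either treatment, by log2 fold changes of -4.01 and -4.92 with CompE. Neuron markers were mixed, by the ratio of the P6 mean to the P0 mean. Tubb3 (8.02 with DMSO and 4.13 with CompE) and Isl1 (1.54 and 1.10) were higher at P6. Nefl (0.916 and 0.843) and Nefm (0.556 and 0.445) were lower. Nefh was lower with DMSO (0.644) and higher with CompE (1.11), and Prph the reverse (2.07 and 0.667). All 9 macrophage markers tested had higher fitted levels at P6, none called. The part of these cell types in the age differences was not tested. The DMSO and CompE comparisons use separate libraries but share batches.

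P2rx2 went from a mean of 171 ± 30.5 RPM (SD, n = 4) to 472 ± 115 RPM (SD, n = 3) with DMSO and from 156 ± 33.5 RPM (SD, n = 4) to 586 ± 86.0 RPM (SD, n = 3) with CompE. The ages did not overlap with either treatment. The log2 fold change was 1.53 ± 0.215 (SE; adjusted p of 0.000280 by edgeR) with DMSO and 2.05 ± 0.217 (SE; adjusted p of 3.33e-05 by edgeR) with CompE. Both calls held without any of the 14 libraries in turn.

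P2ry1 went from 39.6 ± 14.4 RPM (SD, n = 4) to 144 ± 33.8 RPM (SD, n = 3) with DMSO and from 44.6 ± 10.6 RPM (SD, n = 4) to 101 ± 3.87 RPM (SD, n = 3) with CompE, again with no overlap of the ages. The log2 fold change was 1.92 ± 0.297 (SE; adjusted p of 0.000583 by edgeR) with DMSO, called without any library in turn. With CompE it was 1.30 ± 0.294 (SE; adjusted p of 0.00684 by edgeR), and the call was lost without P0 DMSO replicate 3, without any P0 CompE replicate or without any P6 CompE replicate, at adjusted p-values from just above 0.01 to 0.0241.

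P2ry2 went from a mean of 71.9 to 133 RPM with DMSO, at a log2 fold change of 0.95 ± 0.226 (SE; adjusted p of 0.00863 by edgeR), just under the 2-fold threshold. It passed that threshold without P0 DMSO replicate 3 (1.18) or without P6 DMSO replicate 3 (1.11). With CompE its log2 fold change was 0.16 ± 0.227 (SE). P2rx3 fell with CompE from a mean of 38.4 to 2.92 RPM, a log2 fold change of -3.58 ± 0.589 (SE; adjusted p of 0.000923 by edgeR) that held without each library in turn. With DMSO it went from 12.6 ± 8.70 RPM (SD, n = 4) to 8.43 ± 5.26 RPM (SD, n = 3), with overlapping ages and a log2 fold change of -0.48 ± 0.514 (SE). P2ry6 had a mean of 17.9 RPM at P0 and 5.55 RPM at P6 with DMSO, and its log2 fold change of -1.63 ± 0.653 (SE; adjusted p of 0.0885 by edgeR) was not called. P2rx4 had means of 21.9 RPM and 15.8 RPM, and its log2 fold change with DMSO was -0.40 ± 0.144 (SE; adjusted p of 0.0617 by edgeR).

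**Figure D4:**
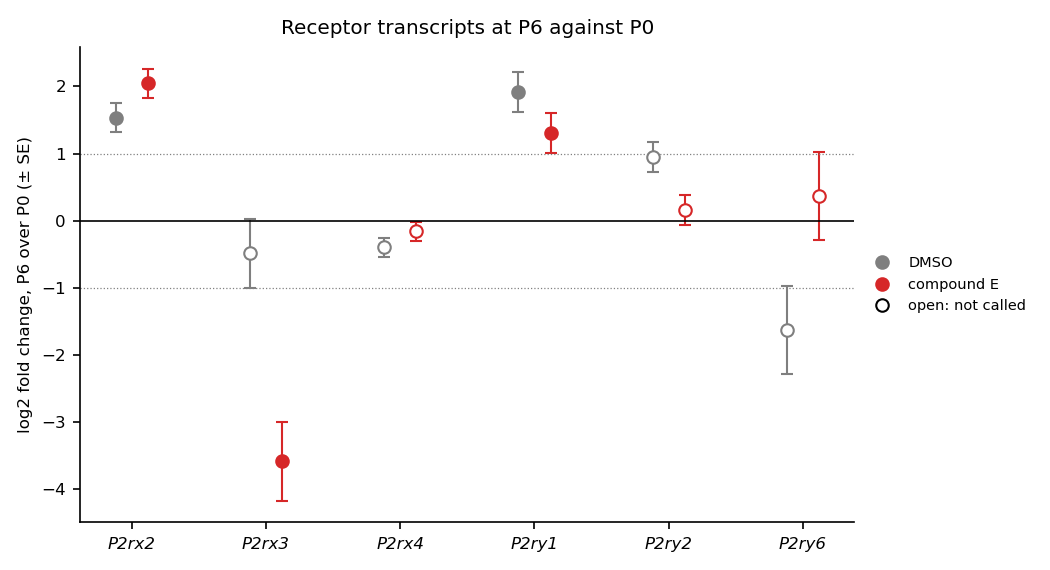
Log2 fold change of P6 over P0 with its SE (vertical axis) for 6 receptors, grey with DMSO and red with CompE, filled where called by edgeR and open where not, with dotted lines at a 2-fold change. P2rx2 (1.53 and 2.05) and P2ry1 (1.92 and 1.30) are filled with both treatments, and P2rx3 is filled with CompE alone at -3.58.

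Of the 10 receptors, 4 were near the floor. P2ry4 had 12 counts in P0 DMSO replicate 1, and 7 and 4 counts in P0 CompE replicates 3 and 4. It had 1 count in each P6 replicate 3 library and 0 in the other 9 libraries, and it was tested in no comparison. P2ry12 had 1 to 17 counts in the P0 libraries, and P2ry14 had 4 to 11. At P6 both were at or under 1 count in replicates 1 and 2, while replicate 3 held 20 (DMSO) and 18 (CompE) counts of P2ry12 and 52 and 57 counts of P2ry14. P2rx7 had 0 counts in both P6 replicate 2 libraries and 70 and 55 counts in the replicate 3 libraries. Of the 12 libraries other than P6 replicate 3, none had all 10 macrophage markers above the floor but P0 DMSO replicate 3, which also had the most P2ry12 counts (17) and the joint most P2rx7 counts (28) of the P0 libraries. By summed macrophage marker level, P0 DMSO replicate 3 (12.8 RPM) was below P0 CompE replicate 1 (13.9 RPM). It was also below P6 CompE replicates 1 (20.2 RPM) and 2 (13.4 RPM), in which P2ry12 was at or under 1 count. In P6 DMSO replicate 1, 7 of 10 macrophage markers were at 0 and P2rx7 stood at 38 counts. The part of macrophages, or of the endothelial and mesenchyme cells whose markers were also highest in the P6 replicate 3 libraries, was not tested otherwise.

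**Figure D5:**
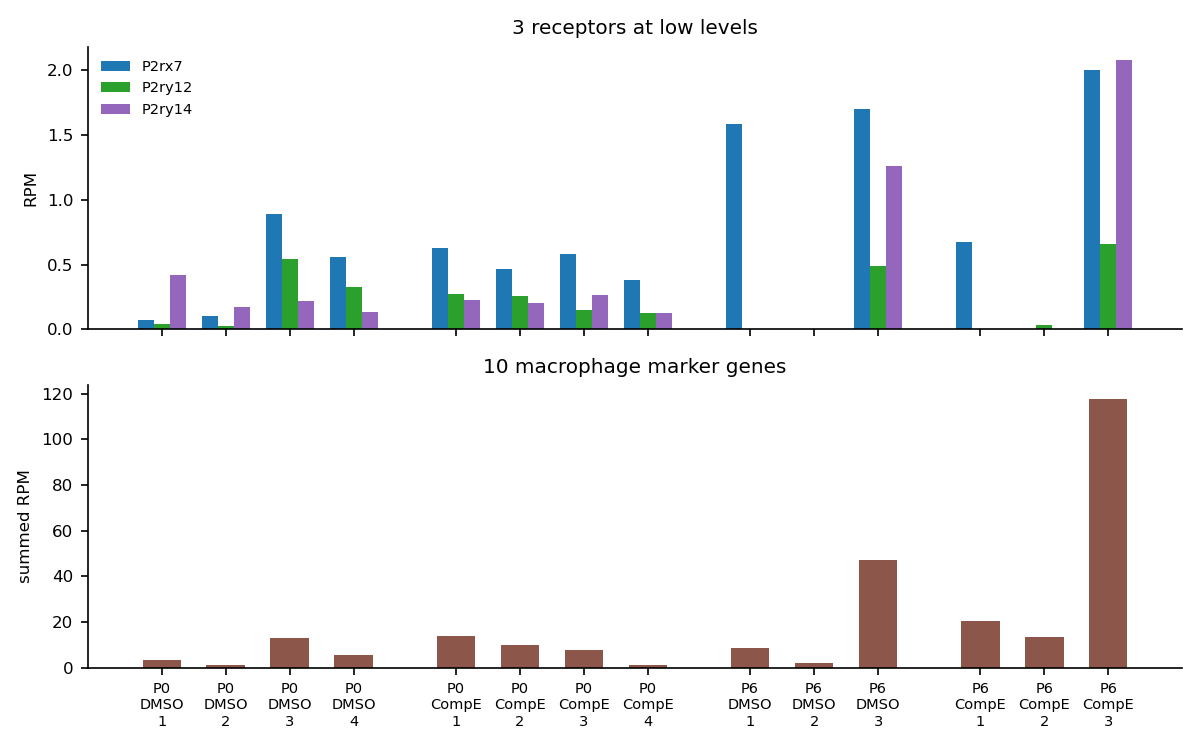
RPM of P2rx7, P2ry12 and P2ry14 (upper bars) and the summed RPM of 10 macrophage marker genes (lower bars) in each of the 14 libraries, named by age, treatment and replicate number below. The P6 replicate 3 libraries hold the highest marker sums, 47.1 and 118 RPM, and the highest P2ry14 levels, 1.26 and 2.08 RPM.

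Around the receptors, 49 other genes of purinergic signalling were examined: other P2 and adenosine receptors, enzymes that break down nucleotides, channels that release them, genes that handle adenosine, and the calcium pathway below P2Y receptors. At P0, 39 could be tested and 1 was called by edgeR, beside 1.22% of all genes (2.2% with the replicate block). This was Enpp1, which splits ATP to AMP and pyrophosphate and rose with CompE. Enpp1 stood at 26.7 to 41.2 RPM with DMSO and 145 to 193 RPM with CompE with no overlap, a log2 fold change of 2.26 ± 0.184 (SE; adjusted p of 0.000269 by edgeR). Nt5e, which turns AMP into adenosine, stood at 4.27 to 7.91 RPM with DMSO and 13.5 to 25.7 RPM with CompE. It was higher in all 4 pairs, with a log2 fold change of 1.46 ± 0.253 (SE) and an adjusted p of 0.0110 by edgeR without the block, not called, and 0.00120 with it, called. None of the 39 was called as lower with CompE at P0, and the median log2 fold change of the 39 was -0.13. At P6 none of 38 tested was called by edgeR or DESeq2, beside 0.0% and 0.0718% of all genes. At an unadjusted p under 0.05 there were 2 by edgeR, 6 with the replicate block and 3 by DESeq2. The shares of all genes at that threshold were 1.89%, 7.23% and 2.68%. Enpp1 was higher with CompE in all 3 P6 pairs (log2 fold change 0.94 ± 0.279, SE, adjusted p of 1.00 by edgeR). Ano1, a calcium-activated chloride channel, was lower with CompE in all 3 P6 pairs, and its groups did not overlap. Its log2 fold change was -0.82 ± 0.277 (SE), with an unadjusted p of 0.0198 by edgeR, not called.

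Between P0 and P6, 6 of 40 pathway genes were called with DMSO, 4 up and 2 down, beside 7.12% of all genes. Those that rose were Gjb2 (1.12) and Gjb6 (1.83), which encode the main gap junction proteins of cochlear SCs, Ano1 (2.02), the calcium-activated chloride channel that opens after P2Y receptor signalling in these cells, and Enpp3 (2.17), a nucleotide pyrophosphatase. Those that fell were Itpr3 (-2.21), a calcium release channel, and Slc29a1 (-1.36), an adenosine transporter, all as log2 fold changes. The Gjb2 call was lost without P6 DMSO replicate 2, where the log2 fold change was 0.93. With CompE 6 of 40 were called too, 4 up and 2 down, beside 6.43% of all genes: Gjb2 (1.27), Gjb6 (2.03), Ano1 (1.43) and Entpd3 (3.12), an ATP-hydrolysing enzyme, rose, and Itpr3 (-2.49) and Slc29a1 (-1.28) fell. The Ano1 call was lost without any P0 or P6 CompE library (adjusted p of 0.0119 to 0.0259 by edgeR). The Entpd3 call was lost without P0 CompE replicates 1, 3 or 4, any P6 CompE replicate, P0 DMSO replicate 4 or P6 DMSO replicate 2 (adjusted p of 0.0102 to 0.0272 by edgeR).

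Genes whose profile over the 14 libraries was nearest to that of a receptor were taken by the root mean square difference of centred log2 CPM, over 17089 genes, for the 4 receptors with a mean of at least 1 RPM whose group means spanned at least 2-fold. For P2ry6 they were Il33 (a cytokine), Hes1 (a transcriptional repressor) and Asic2 (a proton-gated channel), at differences of 0.70, 0.92 and 0.93. Il33 had mean levels of 124 and 13.1 RPM with DMSO and CompE at P0 and of 37.4 and 9.80 RPM at P6, and Hes1 of 116 and 18.0 RPM at P0 and 42.4 and 11.3 RPM at P6. For P2rx3 they were Dlk2 (0.72), Gadd45g (0.72) and Hes6 (0.74), and Gadd45g had means of 13.8 and 109 RPM with DMSO and CompE at P0 and 11.6 and 5.81 RPM at P6. The nearest for P2ry1 were Tlr3, G6pdx and Grb14 (0.26 to 0.29), and for P2rx2 Il17rc, Bag3 and Acsl1 (0.22 to 0.26). These differences were smaller than for P2ry6 and P2rx3, but they are not scaled for how widely a receptor varied. The log2 range over the libraries was 6.59 for P2ry6, 4.64 for P2rx3, 3.17 for P2ry1 and 2.68 for P2rx2. These points share libraries, depth and batches.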

How the data were processed

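The authors trimmed reads with Trim Galore 0.6.0 and Cutadapt 1.15, aligned them to GRCm38 (mm10) using STAR (2.7.0f in the processing notes) and deposited raw counts per gene for each age. The annotation release and use of strand are not given in the sources used here. Without molecular identifiers, reads of a gene are not independent molecules. RPM, RPKM (exon lengths from GENCODE on GRCm38) and tests were computed from the deposited counts. The main test was edgeR 4.0.16 (R 4.3.3), quasi-likelihood, with TMM factors and filterByExpr (minimum count 10). A call needed a Benjamini-Hochberg adjusted p no higher than 0.01 and a change of 2-fold or more, over all genes tested. Each age was fitted alone, and age and the interaction over all 14 libraries. Alternatives were DESeq2 1.42.0 (the authors' tool), its size factors, no filter, an adjusted p of 0.05, blocks by replicate or batch, and each library left out. Same-numbered libraries deviated together in every pair (r of 0.162 to 0.500 at P0, 0.264 to 0.620 at P6) and were taken as pairs. The labels do not say whether replicates came from separate litters, so p-values measure the spread between these samples. Named were the 10 receptors, pathway genes called by edgeR without or with the block, marker genes, and the 3 genes nearest in profile to each receptor that varied. The members and lists were chosen with earlier results of these data known. Scripts were tested on simulated data. P2ry10b and Acp3 were counted under older symbols.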

Additional observations from a re-analysis of the deposited data

Results flagged for a closer look

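P2ry2 in P0 DMSO replicate 3 stood at 98.9 RPM, apart from 60.5 to 64.8 RPM in the other P0 DMSO libraries. P2ry4 in P0 DMSO replicate 1 stood at 0.454 RPM (12 counts), with 0 counts in the other P0 DMSO libraries. Entpd3 in P0 DMSO replicate 3 stood at 2.51 RPM, apart from 0.35 to 0.57 RPM in the others. These were 3 of 38 sets of libraries examined in this way, and chance alone flags about 1 in 20. The P2rx3 response to CompE was in opposite directions in every pair at P0 and at P6, with an interaction of -3.10 on the log2 scale (adjusted p of 0.383 by edgeR, 0.00884 by DESeq2). P2ry2 also moved up in every P0 pair and down in every P6 pair, with an interaction of -0.79 (adjusted p of 0.926 by edgeR).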

How the results depend on the processing

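The receptors called at P0 were 1 without and 2 with the replicate block, and 2 with DESeq2. The 1 pathway gene called at P0 became 2 with the block, with DESeq2, without the filter on low counts and when any change with an adjusted p up to 0.05 was counted. At that last threshold the pathway genes called between P6 and P0 were 11 with DMSO (6 at the main threshold) and 15 with CompE (6). DESeq2 called 7 pathway genes between the ages with DMSO, adding Entpd3, and 8 with CompE, adding Enpp2 and Slc17a9 (named after their values were seen). The receptors called for the interaction were 0 by edgeR and 1 by DESeq2. In the comparisons of CompE with DMSO and the interaction, the replicate block changed no other call of a receptor or pathway gene. It was not applied to the P6 over P0 comparisons. Of 962 recomputed values of the receptors and the named pathway genes, 18 changed sign, none of them called. They came from leaving out libraries and belong to P2rx7 (-0.058 to 1.03 at P0, -1.66 to 0.29 at P6, -0.48 to 1.47 for P6 over P0 with CompE, -1.93 to 0.014 for the interaction), P2ry1 at P0 (-0.084 to 0.37), P2ry6 for P6 over P0 with CompE (-0.62 to 0.91), P2ry12 (-5.83 to 0.12 with DMSO and -3.02 to 0.87 with CompE for P6 over P0, -2.61 to 6.14 for the interaction) and P2ry14 (-5.80 to 1.48, -5.64 to 2.40 and -6.56 to 7.62), all as log2 fold changes. With P2ry12 and P2ry14 at or near 0 in some groups, their values depend on the fit and are no estimate of size. Leaving out both P6 replicate 3 libraries, an alternative chosen after seeing the data, gave -0.48 for P2rx7 and -0.62 for P2ry6 for P6 over P0 with CompE, and ended the P2ry1 call there (adjusted p of 0.0193 by edgeR). The causes were not tested. P2ry4 had too few counts for any test, and P2ry12 and P2ry14 for a test within an age.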
